A study of Mus musculus with 6 samples.

Results

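Kinesins are the motor proteins that walk along microtubules or take them apart, and the genes described here are the protein-coding mouse genes whose symbols begin with Kif followed by a digit or a c. GENCODE M21 lists 43 such genes, and 41 of them were among the 24080 genes of the deposited table (the levels of Kif6 and Kif12 were not analysed here). One of the matches, Kif1bp, codes for a protein that binds kinesins and is not a motor itself, which leaves 40 motors. They were divided by their known roles into 14 mitotic kinesins, 16 transport kinesins, 5 kinesins of the cilium and 5 that regulate microtubules or are atypical.

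Total RNA was sequenced from endothelial cells (ECs) that had been derived from mouse embryonic stem cells. The tested cells, labelled VEC-positive, were VEC-null cells that had received wild-type VEC (vascular endothelial cadherin, encoded by Cdh5) by retroviral transfer. The cells they were compared with, labelled VEC-null, carry a homozygous null mutation of VEC, and the VEC-positive cells carry that mutation too. There were 3 libraries of each, and both groups stem from a single line, so that p-values measure the spread between these libraries and not between independent lines. Recovered reads were 9598590 to 14136376 in the libraries labelled VEC-positive and 6036155 to 11670273 in those labelled VEC-null.

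Cdh5 itself ran against the labels, with 794.3, 739.4 and 749.7 normalized counts in the libraries labelled VEC-positive and 1334, 1439 and 1689 in those labelled VEC-null. The sources used here do not give the part of the gene that the null mutation removes, and the table does not separate introduced from endogenous transcript. Cdh5 therefore does not check the labels, and every direction below rests on them. Genes that the study followed lay far apart between the labels. Cldn5 had 458.6 ± 46.7 normalized counts labelled VEC-positive and 6.38 ± 2.49 labelled VEC-null (SD, n = 3 each). Vwf (log2 fold change 2.12) and Ptprb (1.88) were higher under the VEC-positive label too. The study chose Vwf and Ptprb, the gene of VE-PTP, among genes that its RNA sequencing showed to be higher with VEC. Their direction is therefore no independent check of the labels. By quantitative PCR the study reports Vwf and Ptprb as higher with VEC too. It also cites earlier work of its authors in which VEC raised claudin-5, the direction that Cldn5 has here. Of 9 endothelial markers, 6 were higher under the VEC-positive label, Cdh5 was lower (log2 fold change -0.96) and Egfl7 and Esam did not pass. By the same limma test, described below, 20.9% of all tested genes were higher and 16.4% lower. The summed level of the 9 endothelial markers was 65060 to 67021 normalized counts in the libraries labelled VEC-positive and 46195 to 48930 in those labelled VEC-null. That of 6 mural and fibroblast markers was 191 to 202 in the libraries labelled VEC-positive, mostly from Pdgfrb and Pdgfra. It was 63.0 to 76.5 in those labelled VEC-null, mostly from Pdgfra and Acta2. Pdgfrb had means of 105 normalized counts labelled VEC-positive and 1.10 labelled VEC-null, whereas Acta2 had 8.59 labelled VEC-positive and 19.4 labelled VEC-null. Rgs5 and Pdgfrb were at 0 in 1 library each, and the part of this sum in the results was not tested. Mitochondrial genes took 17.97% to 24.2% of the reads of the libraries labelled VEC-positive and 9.62% to 14.9% of those labelled VEC-null. Library 3 labelled VEC-null stood apart from libraries 1 and 2 of its group, with chi-square values per gene of 49 and 49.8, against 6.53 between libraries 1 and 2 and 11.7 to 17.7 among the libraries labelled VEC-positive. Without it, 3795 genes were higher and 3148 lower under the VEC-positive label, against 2927 and 2304 with it.

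A kinesin motor domain binds microtubules and splits ATP, and the rest of the protein decides what the motor does with that energy. Mitotic kinesins push spindle poles apart, align chromosomes, shorten microtubule ends and build the central spindle on which a cell divides, and most are made as a cell approaches division. Transport kinesins haul organelles, vesicles and protein complexes in dividing and resting cells alike, usually through light chains or adaptors that grip the cargo. A smaller number work in cilia or steer the growth of microtubules, and some have lost the ability to move. In ECs, microtubule motors are known to carry receptors and junction proteins to the cell surface.

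Promoters were examined first, because mitotic genes often share the cell cycle genes homology region (CHR), a short element bound by the MuvB complexes that hold such genes down in resting cells and drive them in late cell cycle. RefSeq promoters of GRCm38.p6, covering 250 bases before to 50 bases after each annotated start, were found for 33 of the 43 genes. The CHR was searched as TTTGAA, the CCAAT box (bound by NF-Y) as CCAAT and an E2F element as TTTNNCGC, each on both strands, and no match of a motif overlapped one of another. The 13 mitotic kinesins with a promoter include Kif2b and leave out Kif20a, so they differ from the 13 tested for RNA below. Kifc1 and its close copy Kifc5b count as separate genes among them. CHR letters were present in 11 of 13 mitotic kinesins and in 3 of the 20 other motors (Kif1a, Kif26b and Kif27), against 20.23% of all genes with a promoter in the table. CCAAT letters were present in 9 of 13 mitotic kinesins and 7 of the 20 other motors, against 41.06% of all genes with a promoter. Both were present in 8 of 13 mitotic kinesins, against 7.97% of all genes with a promoter. E2F letters were found in Kif15 and Kif18a among the mitotic kinesins and in Kif1a among the others, against 5.93% of all genes with a promoter.

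The CHR letters also lay close to the start. A match within 30 bases of the start, a window set after the positions had been seen, occurred in 9 of 13 mitotic kinesins and in 1 of the 20 other motors (Kif26b), against 3.72% of all genes with a promoter. Promoter stretches of 140 bases, 110 before to 30 from the start onward, are printed for the mitotic kinesins in which the position of the letters can be read directly. The sequences run on the strand of the gene, and capitals mark CHR letters (TTTGAA, or TTCAAA where the match is on the other strand) and CCAAT letters (CCAAT, or ATTGG on the other strand). Kif11 lies at chr19:37376272-37376411 (plus strand), Kif15 at chr9:122950971-122951110 (plus strand), Kif22 at chr7:127042391-127042530 (minus strand), Kif23 at chr9:61946770-61946909 (minus strand) and Kif18b at chr11:102925095-102925234 (minus strand). Kifc1 lies at chr17:33890604-33890743 (minus strand), Kif4 at chrX:100625955-100626094 (plus strand), Kif20b at chr19:34922248-34922387 (plus strand) and Kif2c at chr4:117178743-117178882 (minus strand).
Kif11: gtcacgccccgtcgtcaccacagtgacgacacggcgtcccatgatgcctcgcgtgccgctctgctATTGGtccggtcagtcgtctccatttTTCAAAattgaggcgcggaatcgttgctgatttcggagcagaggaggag
Kif15: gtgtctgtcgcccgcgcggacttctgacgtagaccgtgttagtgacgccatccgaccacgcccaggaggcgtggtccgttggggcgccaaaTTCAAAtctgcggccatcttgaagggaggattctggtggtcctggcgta
Kif22: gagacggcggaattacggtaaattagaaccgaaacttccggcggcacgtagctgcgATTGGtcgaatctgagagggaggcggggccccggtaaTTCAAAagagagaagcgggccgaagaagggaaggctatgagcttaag
Kif23: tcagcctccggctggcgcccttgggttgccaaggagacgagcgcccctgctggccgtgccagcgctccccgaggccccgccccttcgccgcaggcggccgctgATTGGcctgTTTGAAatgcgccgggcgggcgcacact
Kif18b: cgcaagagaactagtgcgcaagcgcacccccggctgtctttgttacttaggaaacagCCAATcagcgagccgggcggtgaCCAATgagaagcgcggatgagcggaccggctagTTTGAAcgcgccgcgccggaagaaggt
Kifc1: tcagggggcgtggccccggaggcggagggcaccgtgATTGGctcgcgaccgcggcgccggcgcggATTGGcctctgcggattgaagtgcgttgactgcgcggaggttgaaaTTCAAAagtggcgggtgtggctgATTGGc
Kif4: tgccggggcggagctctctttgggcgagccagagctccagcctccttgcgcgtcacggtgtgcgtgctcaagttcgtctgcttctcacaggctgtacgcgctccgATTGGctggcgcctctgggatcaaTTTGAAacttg
Kif20b: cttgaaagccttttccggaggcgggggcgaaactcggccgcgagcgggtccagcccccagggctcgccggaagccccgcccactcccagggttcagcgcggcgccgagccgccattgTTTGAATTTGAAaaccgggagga
Kif2c: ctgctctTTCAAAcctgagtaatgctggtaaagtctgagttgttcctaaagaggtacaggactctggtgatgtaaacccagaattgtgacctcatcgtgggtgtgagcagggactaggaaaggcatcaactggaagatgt

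In Kif11, Kif15 and Kif22 the CHR letters began 19, 19 and 17 bases before the start, on the other strand in each. In Kifc1, Kif23, Kif18b, Kif20b and Kif4 they lay 1, 2, 3, 7 and 19 bases after it, and in Kif20b a second copy followed directly at 13. Kif2c, whose RNA differed most between the groups within the class, held its match farther out, 103 bases before the start. The remaining mitotic kinesins with CHR letters were Kifc5b, 29 bases after the start, and Kif14, 228 bases before it, and Kif18a and Kif2b had none in the 300 bases. The RefSeq starts of Kif2c and Kif14 lie 3867 and 1505 bases inside the genes' GENCODE spans, so that these far positions are counted from internal starts, and that of Kif4 lies 328 bases inside. For contrast, Kif13a, a transport kinesin at chr13:46929689-46929828 (minus strand), had no match of any of the 3 motifs. Kif26b at chr1:178529015-178529154 (plus strand), an atypical kinesin, carried CHR letters 9 bases and CCAAT letters 73 bases before the start. A match describes letters only, and binding was not measured in these libraries.
Kif13a: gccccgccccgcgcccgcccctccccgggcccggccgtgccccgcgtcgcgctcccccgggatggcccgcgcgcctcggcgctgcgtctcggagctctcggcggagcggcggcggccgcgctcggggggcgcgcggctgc
Kif26b: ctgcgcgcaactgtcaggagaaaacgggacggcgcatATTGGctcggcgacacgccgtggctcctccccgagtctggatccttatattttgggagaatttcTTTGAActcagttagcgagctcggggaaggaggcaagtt

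**Figure D1:**
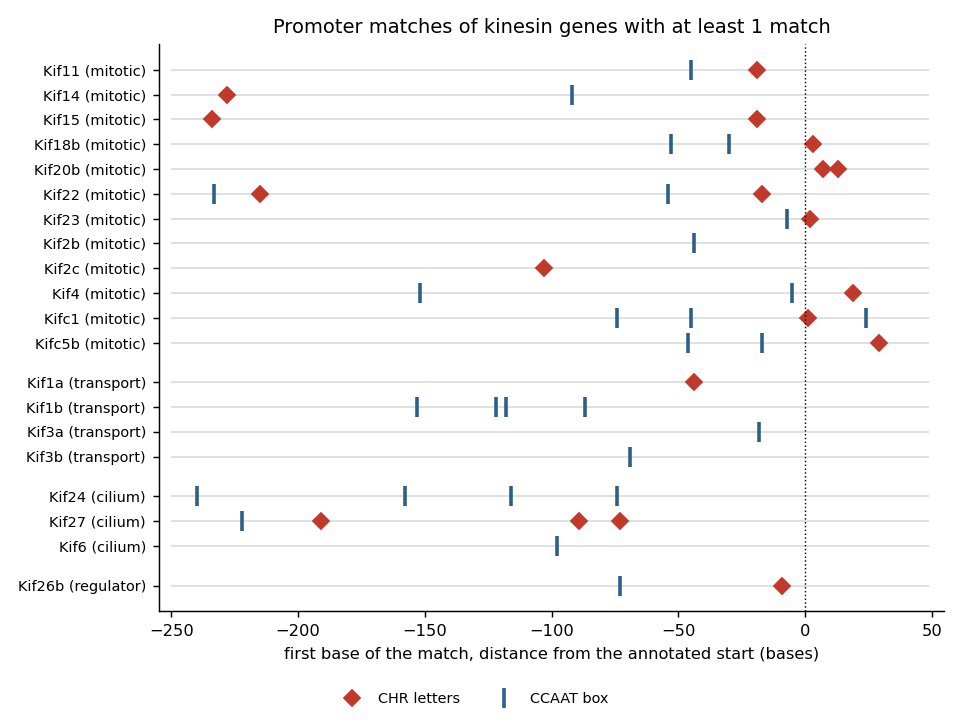
Positions of CHR letters (diamonds) and CCAAT letters (vertical ticks) in RefSeq promoters of kinesin genes with at least 1 match, as the distance in bases of the first base of each match from the annotated start (dotted line), by class. In 9 of 13 mitotic kinesins a diamond lies within 30 bases of the start, and among the other motors Kif26b alone has one there.

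The first comparison asked how the division motors differed between cells with and without reintroduced VEC. All 13 mitotic kinesins that could be tested were lower in libraries labelled VEC-positive, with log2 fold changes of -1.81 to -0.65 and a median of -1.18, and in each of them the 3 values labelled VEC-positive lay below the 3 labelled VEC-null. By limma on log2(normalized count + 1), with Benjamini-Hochberg adjustment over 14032 genes, 16.4% of all tested genes were lower, and 22.8% had non-overlapping values with VEC-positive below. Of the 13, 10 both passed the test and were at least 2-fold lower, against 6.99% of all tested genes, whose median log2 fold change was -0.012. The class leaves out Kif2a, which also works outside mitosis and was placed with the regulators. Kif2a did not pass (log2 fold change -0.23, limma adjusted p = 0.0751). The classes were drawn with earlier results of these data known. Cells in division cannot be counted in bulk RNA, where fewer cells of a type and less RNA per cell cannot be told apart.

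Kif2c, a depolymerase at centromeres that frees wrongly attached microtubules, had 159.8, 136.4 and 154.9 normalized counts in the libraries labelled VEC-positive and 589.1, 511.9 and 485.0 in those labelled VEC-null. The groups were far apart compared with their spread, at 150.4 ± 12.4 and 529 ± 54.0 (SD, n = 3 each). The log2 fold change was -1.81 (SE 0.11, limma adjusted p = 1.63e-05), the largest fall of the class. The gene (ENSMUSG00000028678) spans 117159639 to 117182639 on chromosome 4 of mm10.

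Kif4, a chromokinesin that condenses chromosomes and later marks the central spindle, had 311.4, 250.4 and 270.3 normalized counts in the libraries labelled VEC-positive and 1005, 791.4 and 823.7 in those labelled VEC-null. The highest value labelled VEC-positive was under the lowest labelled VEC-null by a wide margin, with a log2 fold change of -1.65 (SE 0.12, limma adjusted p = 4.02e-05). Kif14, which works at the midbody with citron kinase, had 110.8, 129.6 and 112.2 normalized counts in the libraries labelled VEC-positive and 423.8, 321.3 and 345.8 in those labelled VEC-null. Its log2 fold change was -1.62 (SE 0.14, adjusted p = 7.00e-05). Kif4 shares 15.1% of its exon length with Pdzd11 on the opposite strand, and the sources used here do not say whether the counting used strand. Pdzd11 had a mean of 75.1 normalized counts labelled VEC-positive and 85.0 labelled VEC-null and did not pass the test (adjusted p = 0.467).

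The motors of cytokinesis fell as well. Kif20a, which carries the chromosomal passenger complex to the central spindle, had 297.4, 303.0 and 301.0 normalized counts in the libraries labelled VEC-positive and 947.1, 806.4 and 849.4 in those labelled VEC-null. Its values labelled VEC-positive were the tightest of the class, with an SD of 2.80 around 300.5, and the log2 fold change was -1.52 (SE 0.09, adjusted p = 9.93e-06). Kif20a shares 29.3% of its exon length with Cdc23 on the opposite strand, and Cdc23 did not pass the test (544.2 normalized counts labelled VEC-positive and 632 labelled VEC-null, adjusted p = 0.146). Kif23, the motor subunit of centralspindlin, had 810.6, 788.1 and 725.5 normalized counts in the libraries labelled VEC-positive and 1669, 1495 and 1497 in those labelled VEC-null. The groups did not overlap, with a log2 fold change of -1.003 (SE 0.08, adjusted p = 5.86e-05). Kif20b, needed for the last steps of cytokinesis in human cells, had 1030, 1067 and 875.6 normalized counts in the libraries labelled VEC-positive and 1763, 1385 and 1539 in those labelled VEC-null. Its log2 fold change of -0.65 (SE 0.11, adjusted p = 0.00273) was the smallest of the class.

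Spindle assembly rests on Kif11, the plus-end motor that slides spindle poles apart, and on Kif15, which holds them apart once the spindle stands. Kif11 had 1040, 1052 and 1018 normalized counts in the libraries labelled VEC-positive and 2001, 1555 and 1778 in those labelled VEC-null. The groups did not overlap, and the log2 fold change was -0.77 (SE 0.10, adjusted p = 0.000553). Kif15 had 428.1, 435.4 and 379.3 normalized counts in the libraries labelled VEC-positive and 1265, 1040 and 1014 in those labelled VEC-null. It differed more than Kif11, with a log2 fold change of -1.41 (SE 0.11, adjusted p = 4.46e-05).

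Kifc1 is a minus-end motor that draws spindle microtubules into poles, and Kifc5b is a close copy of it. Kifc1 had 159.8, 184.1 and 166.2 normalized counts in the libraries labelled VEC-positive and 472.8, 412.7 and 355.5 in those labelled VEC-null, a log2 fold change of -1.27 (SE 0.13, adjusted p = 0.000165). Kifc5b had 60.7, 72.1 and 41.2 normalized counts in the libraries labelled VEC-positive and 113.2, 107.1 and 116.1 in those labelled VEC-null, a log2 fold change of -0.98 (SE 0.22, adjusted p = 0.0092). Stretches of 50 bases shared with the other gene made up 38.6% of those in Kifc1 transcripts and 36.6% of those in Kifc5b transcripts, so the division of reads between the pair is uncertain.

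The last 3 tested members move or align chromosomes. Kif22, which pushes chromosome arms outward, had 204.1, 194.8 and 171.9 normalized counts in the libraries labelled VEC-positive and 457.5, 388.2 and 348.4 in those labelled VEC-null (log2 fold change -1.06). Kif18a, which damps chromosome movement, had 95.6, 73.1 and 90.4 in the libraries labelled VEC-positive and 218.8, 159.9 and 215.4 in those labelled VEC-null (-1.18). Kif18b, which trims astral microtubules, had 71.1, 60.4 and 83.1 in the libraries labelled VEC-positive and 202.0, 162.2 and 126.8 in those labelled VEC-null (-1.17). Each of the 3 had values that did not overlap between the groups, and all passed the test (limma adjusted p at most 0.00292). Kif2b, best known from the testis, was at 0 reads in 5 libraries and at 6 reads in VEC-null library 3, and was below the filter of 10 normalized counts in 3 libraries.

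All 13 calls held under each of the 18 alternatives, among them the leave-one-out fits. Without VEC-null library 3, 13 were still lower. Scaling the libraries to equal totals, with mitochondrial genes kept, moved the median of all tested genes to -0.32 and turned the split of calls over all genes from 2927 higher and 2304 lower into 1553 higher and 5000 lower. Under it the 13 mitotic kinesins remained lower. The share of mitochondrial reads moves with the groups, and its part in the result was not tested beyond the scaling to equal totals without mitochondrial genes, under which all 13 were lower too.

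**Figure D2:**
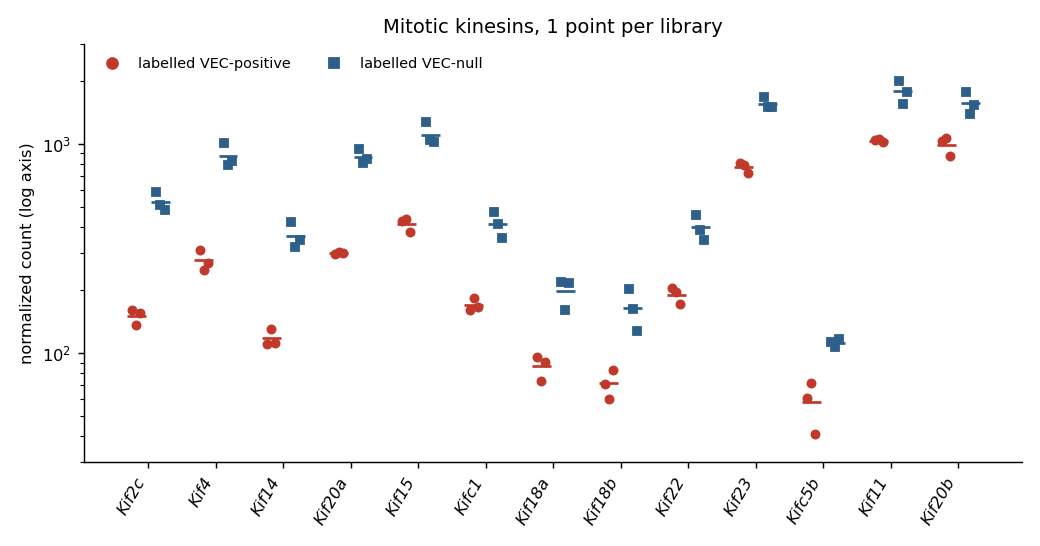
Normalized counts (log axis) of the mitotic kinesins in each library, with libraries labelled VEC-positive to the left of those labelled VEC-null and horizontal bars at the group means. For each of the 13 tested genes every point labelled VEC-positive lies below every point labelled VEC-null.

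The second comparison concerned the motors of transport. Of 16 genes, 12 passed the filter, of which 5 were higher and 1 was lower in libraries labelled VEC-positive, with a median log2 fold change of 0.20. Of all tested genes, 20.9% were higher and 16.4% lower. In 6 of the 12 the values labelled VEC-positive lay wholly above those labelled VEC-null, a pattern shown by 27.2% of all tested genes. The largest change belonged to Kifc3, a minus-end motor that is known in human epithelial cells to work at the adherens junction. Kifc3 (ENSMUSG00000031788, chromosome 8, 95099828 to 95202812) had 424.6, 446.2 and 395.4 normalized counts in the libraries labelled VEC-positive and 90.3, 120.5 and 94.9 in those labelled VEC-null. It was 4.14-fold higher, with a log2 fold change of 2.05 (SE 0.14, limma adjusted p = 2.02e-05) and no overlap between the groups.

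Both kinesin-3 motors of the Kif13 pair were higher in libraries labelled VEC-positive. Kif13b, which is known to take VEGF receptor 2 to the surface of human ECs, had 708.0, 657.5 and 737.6 normalized counts in the libraries labelled VEC-positive and 456.0, 374.1 and 449.5 in those labelled VEC-null (log2 fold change 0.72, SE 0.10, adjusted p = 0.000993). Kif13a, a motor of recycling endosomes, had 938.9, 940.0 and 881.2 in the libraries labelled VEC-positive and 696.2, 645.8 and 744.7 in those labelled VEC-null (0.40, SE 0.08, adjusted p = 0.00562). Neither gene's groups overlapped, but the call of Kif13a ended under equal totals, where its log2 fold change was 0.094 (adjusted p = 0.352).

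Kif3c, a partner chain of kinesin-2, had 310.3, 307.8 and 291.3 normalized counts in the libraries labelled VEC-positive and 226.5, 230.0 and 215.4 in those labelled VEC-null (log2 fold change 0.44, SE 0.09, adjusted p = 0.00685). Its call too ended under equal totals (0.13, adjusted p = 0.298), and 35.3% of its exon length is overlapped by the antisense gene 1110002L01Rik, which had means of 119 normalized counts labelled VEC-positive and 115 labelled VEC-null. The common kinesin-2 chains did not pass in the main test, though Kif3a was lower under equal totals with and without mitochondrial genes (-0.50, adjusted p = 0.00479, and -0.34, adjusted p = 0.0245). Kif3a had 397.7, 347.8 and 348.6 in the libraries labelled VEC-positive and 430.0, 390.6 and 430.0 in those labelled VEC-null (adjusted p = 0.149), and Kif3b had 481.7, 471.5 and 437.4 in the libraries labelled VEC-positive and 485.0, 428.4 and 361.7 in those labelled VEC-null (adjusted p = 0.408).

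Kif5b, the conventional kinesin heavy chain of most cells, was the most abundant motor per kilobase of exon in both groups, with a mean of 1000.4 normalized counts per kilobase labelled VEC-positive and 887.5 labelled VEC-null. It had 8295, 8166 and 7492 normalized counts in the libraries labelled VEC-positive and 6945, 6345 and 7959 in those labelled VEC-null. The groups overlapped through VEC-null library 3, and the gene did not pass the test (log2 fold change 0.18, SE 0.10, adjusted p = 0.206), although without that library it did (0.26, adjusted p = 0.018). Among the 3 Kif5 genes it made up 99.7% to 99.8% of the summed level per kilobase in every library.

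Kif1c, a motor of dense-core vesicles and integrins, had 2875, 2786 and 2594 normalized counts in the libraries labelled VEC-positive and 2350, 2427 and 2286 in those labelled VEC-null. The call was slight (log2 fold change 0.22, SE 0.07, adjusted p = 0.0396). It did not hold under 12 of the 18 alternatives, edgeR (adjusted p = 0.0526) and DESeq2 (adjusted p = 0.0503) among them, nor without any 1 of 5 libraries (all but VEC-null library 3, adjusted p = 0.0528 to 0.16). Under equal totals the log2 fold change turned to -0.087 (adjusted p = 0.371). Kif1b, which carries mitochondria and synaptic vesicle precursors, had 2987, 2728 and 2907 in the libraries labelled VEC-positive and 3008, 2531 and 3193 in those labelled VEC-null (log2 fold change -0.013, adjusted p = 0.933, but -0.32 and 0.0314 under equal totals). Kif16b, a motor of early endosomes, had 416.4, 440.3 and 398.6 in the libraries labelled VEC-positive and 480.4, 353.6 and 386.6 in those labelled VEC-null (adjusted p = 0.772).

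The neuronal kinesins were near the limit of detection. Kif1a, the motor of synaptic vesicle precursors, had 19.8, 15.6 and 8.07 normalized counts in the libraries labelled VEC-positive and 35.2, 31.5 and 27.5 in those labelled VEC-null, a log2 fold change of -1.14 (SE 0.36, adjusted p = 0.0374). This call ended without a filter (adjusted p = 0.0562), with DESeq2 (adjusted p = 0.0686) and without VEC-positive library 2 or 3 or VEC-null library 1 or 2 (adjusted p = 0.0773 to 0.1). Kif5a, Kif5c, Kif17 and Kif28 stayed below the filter, with at most 10.7 normalized counts in any library, and Kifc2 had 8.87 to 17.5 and did not pass. The summed level of the 6 neuronal markers in the table was 300.9, 197.7 and 313.9 normalized counts in the libraries labelled VEC-positive and 570.7, 489.0 and 166.7 in those labelled VEC-null, with most of it from Stmn2 and with Syt1 at 0 reads in 4 of the 6 libraries. Its part in the Kif1a values was not tested.

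**Figure D3:**
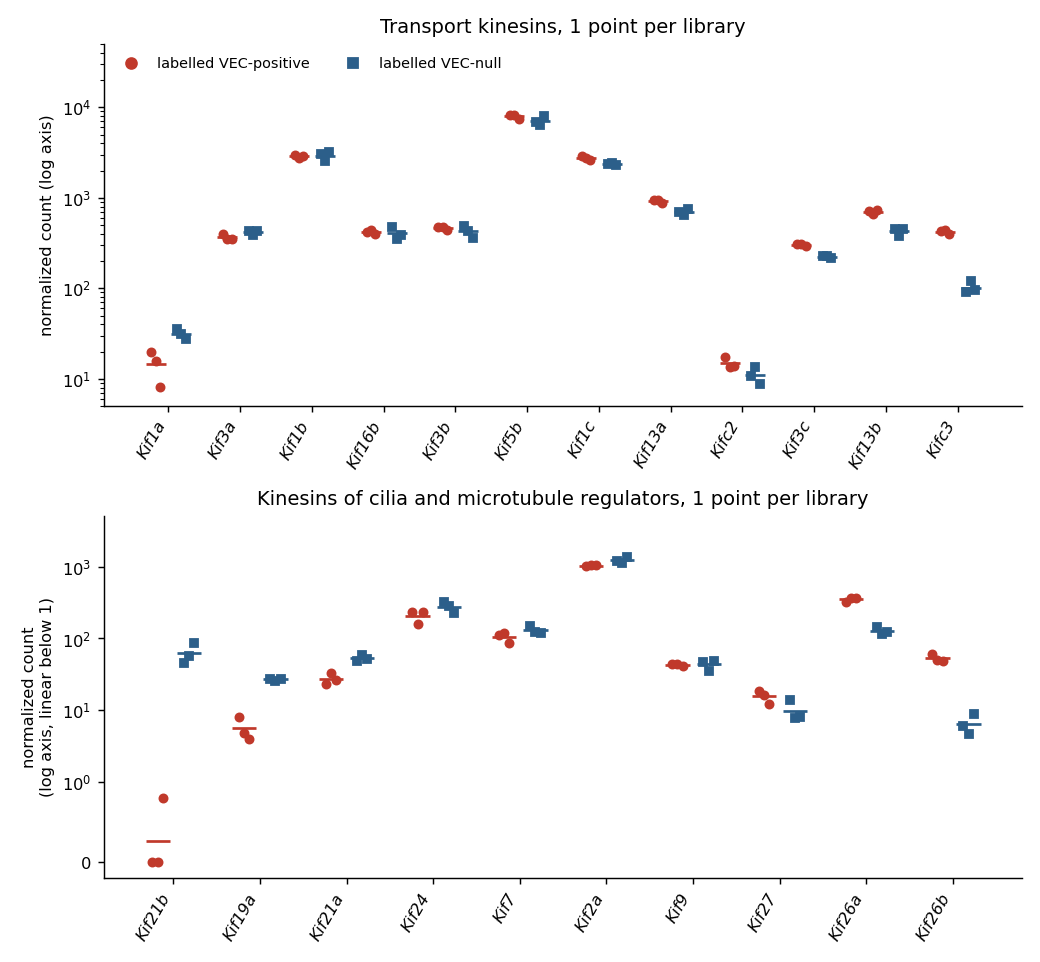
Normalized counts (log axis, linear below 1 in the lower panel) of the tested transport, cilium and regulator kinesins in each library, with libraries labelled VEC-positive to the left of those labelled VEC-null and horizontal bars at the group means. Kifc3, Kif26a and Kif26b stand above their VEC-null values by the widest margins, whereas Kif21b is near 0 in all libraries labelled VEC-positive.

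Among the kinesins that regulate microtubules or are atypical, 2 were higher and 2 were lower in libraries labelled VEC-positive, and 1 did not pass, where 20.9% of all tested genes were higher and 16.4% lower. Kif26a and Kif26b, whose motor domains have lost the ability to split ATP, rose together. Kif26a had 325.4, 366.3 and 361.5 normalized counts in the libraries labelled VEC-positive and 145.4, 114.2 and 124.1 in those labelled VEC-null (log2 fold change 1.45, SE 0.12, limma adjusted p = 7.17e-05). Kif26b had 60.7, 49.7 and 48.4 in the libraries labelled VEC-positive and 6.12, 4.73 and 8.87 in those labelled VEC-null (2.86, SE 0.31, adjusted p = 0.00023), from 163 reads labelled VEC-positive and 20 labelled VEC-null.

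Kif21b, a motor that slows microtubule growth and is best known from neurons and lymphocytes, was nearly absent from the libraries labelled VEC-positive. It had 0, 0 and 0.807 normalized counts in them and 45.9, 57.5 and 86.0 in the libraries labelled VEC-null, from 1 and 200 reads. The VEC-null level was 205 times as high, with a 95% counting interval of 36.3 to 8125 that covers counting error only. Its close relative Kif21a had 23.3, 33.1 and 26.6 normalized counts in the libraries labelled VEC-positive and 48.96, 58.3 and 52.3 in those labelled VEC-null (log2 fold change -0.93, SE 0.22, adjusted p = 0.0121). Both members of the Kif21 pair were thus lower, without overlap, while both members of the Kif26 pair were higher. Leukocyte markers, 2 of 4 in the table, summed to 10.5 to 12.7 normalized counts in the libraries labelled VEC-positive and 12.2 to 36.4 in those labelled VEC-null, with Ptprc at 0 in 3 of the 6 libraries, and their part in the Kif21b values was not tested.

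Kif2a, a depolymerase related to Kif2c that also works outside mitosis, had 1003, 1053 and 1034 normalized counts in the libraries labelled VEC-positive and 1189, 1102 and 1358 in those labelled VEC-null. Dimt1 overlaps 19.2% of its exon length on the opposite strand, with means of 36.6 normalized counts labelled VEC-positive and 36.0 labelled VEC-null. The Kif2a groups did not overlap, yet the difference did not pass in limma (log2 fold change -0.23, SE 0.09, adjusted p = 0.0751). It passed narrowly with edgeR (adjusted p = 0.0486), DESeq2 (adjusted p = 0.0495) and without VEC-null library 2 (adjusted p = 0.045), and under equal totals with and without mitochondrial genes (-0.55, adjusted p = 0.00137, and -0.38, adjusted p = 0.0182). Kif1bp, the binding protein, had 383.7, 421.8 and 350.2 in the libraries labelled VEC-positive and 234.1, 227.6 and 282.8 in those labelled VEC-null (0.64, SE 0.12, adjusted p = 0.00429).

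Of the 5 kinesins of the cilium, 1 was lower and 4 did not pass, a share near the 16.4% of all tested genes that were lower. Kif19a, which shortens motile cilia, had 8.16, 4.87 and 4.03 normalized counts in the libraries labelled VEC-positive and 27.5, 26.0 and 27.5 in those labelled VEC-null (log2 fold change -2.11, SE 0.35, adjusted p = 0.00209). Kif24, which restrains the start of cilium growth, had 232.1, 157.8 and 230.8 in the libraries labelled VEC-positive and 316.7, 284.3 and 227.0 in those labelled VEC-null (adjusted p = 0.114, or 0.0224 without VEC-null library 3 and 0.0188 under equal totals). Kif7, a Hedgehog pathway protein of the cilium tip, had 112.0, 118.8 and 87.2 in the libraries labelled VEC-positive and 149.9, 124.4 and 120.6 in those labelled VEC-null (adjusted p = 0.177, or 0.0155 under equal totals). Kif9 and Kif27, motile cilium proteins, had 7.88 to 47.9 normalized counts over all libraries and did not pass. Kif19a and Kif21b passed the filter through the VEC-null libraries alone, and Kif26b through the VEC-positive libraries alone, so that each was tested only because it was high in that group.

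**Figure D4:**
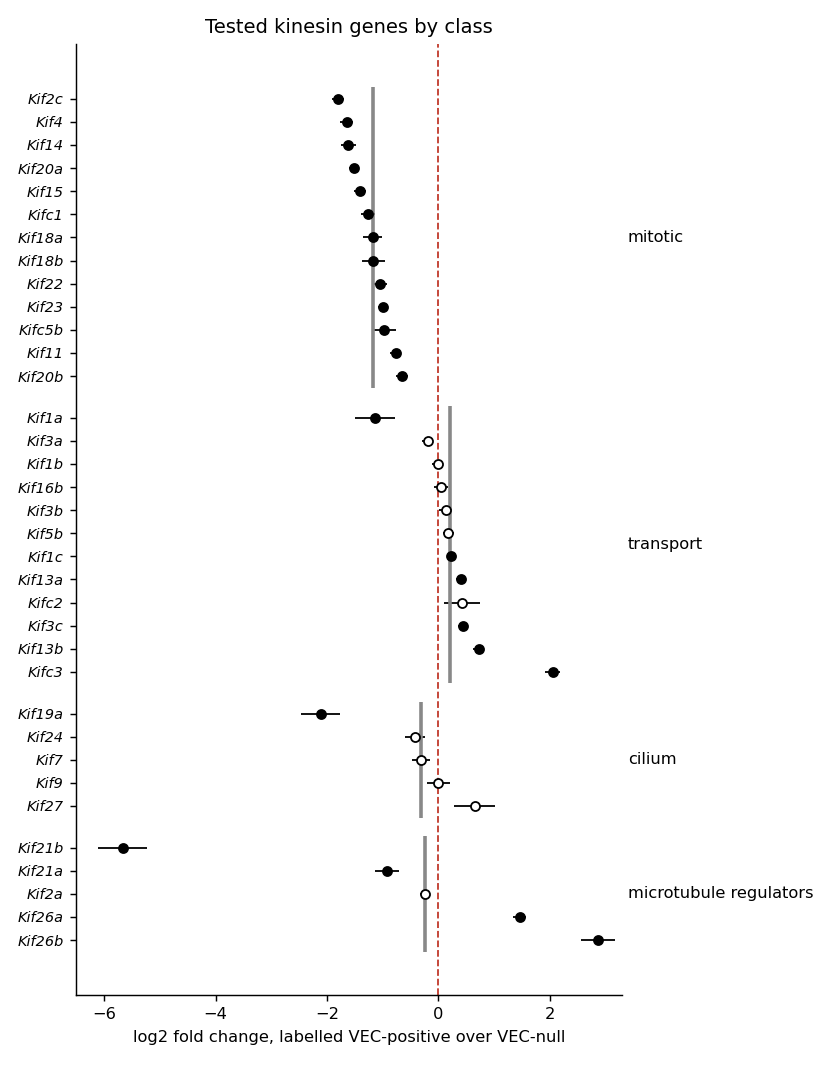
Log2 fold change (libraries labelled VEC-positive over those labelled VEC-null) with its SE for the 35 tested motors, by class, with filled points for genes that passed the test, grey bars for class medians and a dashed line for the median of all tested genes. The 13 mitotic kinesins all lie below 0, with a median of -1.18, the 12 transport kinesins lie on both sides, with a median of 0.20, and the position of Kif21b depends on the pseudocount.

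Summed per kilobase of exon, the motors of each class can be set side by side. Mitotic kinesins reached 735.8, 730.1 and 680.6 normalized counts per kilobase in the libraries labelled VEC-positive and 1765, 1460 and 1497 in those labelled VEC-null. Transport kinesins reached 2150, 2091 and 1966 in the libraries labelled VEC-positive and 1803, 1669 and 1901 in those labelled VEC-null. The mitotic sums did not overlap between the groups. The transport sums were higher in libraries labelled VEC-positive without overlap too, a pattern shown by 27.2% of all tested genes taken singly. Mitotic kinesins therefore made up 23.2%, 23.5% and 23.2% of the kinesin motor level per kilobase in the libraries labelled VEC-positive and 45.5%, 42.8% and 40.3% in those labelled VEC-null. The ratio of mitotic to transport level was 0.346 ± 0.00346 in the libraries labelled VEC-positive and 0.881 ± 0.0960 in those labelled VEC-null (SD, n = 3 each). These sums describe chosen members and carry no test. Kif5b alone gave 1000.4 of the mean transport sum of 2069 labelled VEC-positive and 887.5 of 1791 labelled VEC-null. Its own values overlapped between the groups. The sums were not recomputed under equal totals, where Kif5b had a log2 fold change of -0.13 and Kif1c of -0.087. Under that scaling 2 transport kinesins were higher and 3 lower, where 1553 of 14036 tested genes were higher and 5000 lower. The direction of the transport sums is therefore shown for the deposited scaling only.

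The order of the motors per kilobase was not the same in both groups. Kif5b and Kif1c ranked 1 and 2 per kilobase in both groups. Below them stood Kif1b, Kif2a, Kif20b and Kif11 (ranks 3 to 6) in the libraries labelled VEC-positive, at 163, 161, 142 and 139 normalized counts per kilobase, where the values of Kif1b and Kif2a overlapped, as did those of Kif20b and Kif11, while every Kif20b value was below every Kif2a value. In the libraries labelled VEC-null, ranks 3 to 6 went to Kif11, Kif20b, Kif20a and Kif23, at 238, 225, 200.01 and 197, all of them mitotic, and the values of neighbours in this order overlapped. Kif2a, which is not of the mitotic class, followed at rank 7 with 190, and its values overlapped those of Kif20a and Kif23. Kifc3 ranked 11 in the libraries labelled VEC-positive and 26 in those labelled VEC-null, and Kif2c ranked 21 in the libraries labelled VEC-positive and 11 in those labelled VEC-null.

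**Figure D5:**
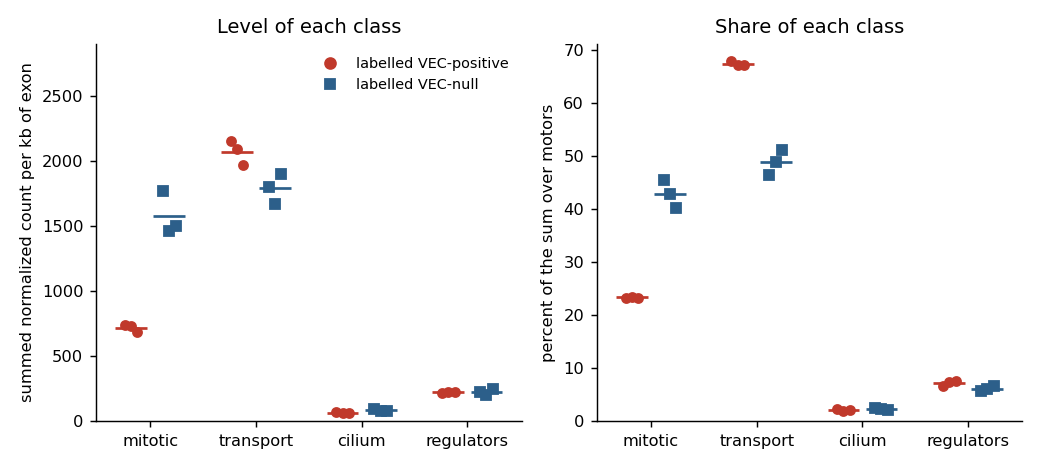
Summed normalized count per kilobase of exon (left panel) and percent of the sum over all motors (right panel) by class, with 1 point per library, circles labelled VEC-positive to the left of squares labelled VEC-null and horizontal bars at the means. Mitotic kinesins take 23.2% to 23.5% of the level in the libraries labelled VEC-positive and 40.3% to 45.5% in those labelled VEC-null.

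Ratios within a library compare motors that work together. In 12 pairs compared per kilobase by an exact permutation test, two-sided, 10 did not overlap between the groups, and 3 against 3 libraries allow no p below 0.1 (adjusted 0.12 over the 12 pairs), so that none could pass 0.05. Of all tested genes taken singly, 22.8% lay wholly below and 27.2% wholly above in the libraries labelled VEC-positive. The pairs were chosen, and the share among gene pairs in general was not computed. The ratio of Kif15 to Kif11 was 0.270 ± 0.0156 in the libraries labelled VEC-positive and 0.422 ± 0.0335 in those labelled VEC-null. Kif20a to Kif20b was 0.490 ± 0.0533 in the libraries labelled VEC-positive and 0.893 ± 0.0367 in those labelled VEC-null. The division motor Kif2c stood at 0.214 ± 0.0223 of its relative Kif2a in the libraries labelled VEC-positive and at 0.643 ± 0.106 in those labelled VEC-null. Kif18a to Kif18b was 0.441 ± 0.0467 in the libraries labelled VEC-positive and 0.456 ± 0.141 in those labelled VEC-null, with overlap (exact permutation p = 1). Ratios to binding partners were taken too. Kif4 to Prc1 was 0.405 ± 0.0370 in the libraries labelled VEC-positive and 0.622 ± 0.0197 in those labelled VEC-null, whereas Kif11 to Tpx2 was the higher one in the libraries labelled VEC-positive, at 0.833 ± 0.0307 against 0.650 ± 0.0729 labelled VEC-null.

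Partners of the mitotic kinesins were examined as a list of their own. Of 20 listed genes of mitosis and cytokinesis, 18 were lower in libraries labelled VEC-positive and 2 did not pass, with a median log2 fold change of -1.11, where 16.4% of all tested genes were lower. Cenpf, a kinetochore protein, was lower by a log2 fold change of -1.88, and Cenpe, a kinetochore kinesin whose symbol does not follow the Kif pattern, had 771, 899 and 737 normalized counts in the libraries labelled VEC-positive and 3261, 2533 and 2450 in those labelled VEC-null (-1.77, limma adjusted p = 3.28e-05). Ect2, which starts the cleavage furrow, and the checkpoint kinase Bub1b had log2 fold changes of -1.39 and -1.37. Numa1, which organises spindle poles and is also a nuclear protein of resting cells, did not pass (-0.14, adjusted p = 0.192), nor did Incenp (-0.61, adjusted p = 0.0722), whose values overlapped through VEC-null library 3 and which passed without that library (-0.91, adjusted p = 9.95e-05).

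Cargo adaptors and light chains, in turn, were higher in 9 cases and lower in 1 among 19 tested, with a median log2 fold change of 0.25, where 20.9% of all tested genes were higher and 16.4% lower. Among the 9 is Kif1bp, which is also counted among the kinesin genes above. Under equal totals 5 adaptors and light chains were higher and 6 lower, where 1553 of 14036 tested genes were higher and 5000 lower. Fez1, an adaptor of kinesin-1, had 161, 171 and 148 normalized counts in the libraries labelled VEC-positive and 16.8, 12.6 and 13.3 in those labelled VEC-null (3.41, adjusted p = 1.02e-05). Mapk8ip1, a scaffold that links kinesin light chains to cargo, had 187, 176 and 176 in the libraries labelled VEC-positive and 27.5, 21.3 and 23.1 in those labelled VEC-null (2.86, adjusted p = 1.17e-05). The light chain Klc1 was higher, with a log2 fold change of 0.85. The neurofilament gene Nefl, listed as a cargo, was the lower one (-1.82). Kifap3, which joins the kinesin-2 chains to cargo, did not pass (758 ± 30.2 labelled VEC-positive and 830 ± 218 labelled VEC-null, adjusted p = 0.659).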

How the data were processed

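Total RNA libraries were prepared with a stranded total RNA kit from 3 VEC-positive and 3 VEC-null EC samples, grouped by their labels. Per the labels, Trim Galore, TopHat2 2.1.1 (mm10) and DESeq2 1.14 were used. The sources used here give neither the counting program, nor the annotation, nor the use of strand in counting. The signal values deposited by the authors are normalized gene counts, scaled by a single factor in each library. Every value was a whole multiple of 1 read within 0.01 read, which gave the recovered reads (6036155 to 14136376 per library). PCR duplicates count as reads, so intervals cover counting error only. Symbols and coordinates of 23908 of 24080 genes came from GENCODE M21.

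Genes with at least 10 normalized counts in at least 3 libraries were compared, VEC-positive over VEC-null, on log2(normalized count + 1) with the trended test of limma 3.58.1 in R 4.3.3. Tests were two-sided, p-values were adjusted by Benjamini-Hochberg over every gene tested, and the threshold was 0.05. Fold changes on this scale understate the change of low genes. Levels per kilobase used the merged exon length. Alternatives were pseudocounts of 0.5 and 5, no filter and a filter of 50, equal totals with and without mitochondrial genes, TMM and upper-quartile scaling, no trend, a replicate block, and the omission of each library. Recovered reads were also tested with DESeq2 1.42.0 and edgeR 4.0.16. All kinesins are accounted for, and those past the threshold or with a mean of at least 50 normalized counts are given per library. From each other list, the 4 most changed of the genes that passed (mean of 50 or more) and up to 2 that did not are named. Exceptions, named after their values were seen, are Prc1 and Tpx2 as pair members, overlapping neighbours, Cldn5, Vwf, Ptprb, Actr1b, Dync1i1 and Tuba4a. One overlapping neighbour is not reported here. The members and lists were chosen with earlier results of these data known. Promoters came from RefSeq (GRCm38.p6). The script was tested on simulated data. Figures were drawn with matplotlib 3.10.9.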

Additional observations from a re-analysis of the deposited data

How the results depend on the processing

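Of the 25 kinesin calls, 21 held in every alternative that could be run, and the 13 mitotic kinesins were lower in all 18. Equal totals moved the count of transport kinesins that were higher to 2 (5 in the main analysis), Kif1c to a log2 fold change of -0.087 and the counts over all kinesin genes to 5 higher and 22 lower (8 and 17). Over all genes, equal totals gave 1553 higher and 5000 lower of 14036 tested, against 2927 and 2304 of 14032. Equal totals without mitochondrial genes gave 2044 higher and 3174 lower of 14024. The 1 transport kinesin that was lower became 0 without a filter, with the replicate block and with DESeq2 (1 at an unadjusted p under 0.05 in each), 0 with a filter of 50, which removes Kif1a, 3 under equal totals and 2 under equal totals without mitochondrial genes. It ranged from 0 to 1 when single libraries were left out, with 0 without VEC-positive library 2 or 3 or VEC-null library 1 or 2 (1 at an unadjusted p under 0.05 in each). Kinesins of the cilium and regulators gave 1 higher (2) with a filter of 50 and 1 to 2 without single libraries, the lower count standing without each VEC-positive library, where Kif26b left the tested genes. They gave 0 lower (3) with a filter of 50 in limma (1 at an unadjusted p under 0.05), 6 under equal totals, 5 under equal totals without mitochondrial genes and 1 to 3 without single libraries, with 1 without VEC-null library 1. Kif19a, Kif21a and Kif21b left the tested genes with a filter of 50, and Kif19a and Kif21b did so without each VEC-null library. For the other changes the cause was not tested. Replicate numbers did not pair the libraries: deviations of same-numbered libraries correlated at 0.076, -0.33 and -0.295. Those of differently numbered libraries correlated at -0.225 to 0.39, highest for VEC-positive library 2 with VEC-null library 3. A pairing other than by number was not tested. With the replicate block, 2400 genes were higher and 1744 lower (2927 and 2304), Kif1a had an adjusted p of 0.051 and Kif1c of 0.0785, and the 13 mitotic kinesins were lower. Low reads limit Kif1a, Kif19a, Kif21b, Kif26b and Kifc2, and 3 libraries a group bar any exact test of a single value from passing 0.05.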

Other observations

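The minus-end motor dynein and its activator dynactin, which carry cargo opposite to most kinesins, were taken as a list. Of 25 tested genes, 7 were higher and 3 lower in libraries labelled VEC-positive, with a median log2 fold change of 0.0066, shares near the 20.9% and 16.4% of all tested genes. Under equal totals 3 were higher and 14 lower, where 1553 of 14036 tested genes were higher and 5000 lower. The heavy chain Dync1h1 had 5603 ± 260.3 normalized counts in the libraries labelled VEC-positive and 5584 ± 409 in those labelled VEC-null (SD, n = 3 each, limma adjusted p = 0.959). Dctn2, a dynactin subunit, was higher (log2 fold change 0.77, adjusted p = 0.000189), as was the light chain Dynll2 (0.65, adjusted p = 0.000766). Dync1i1, also among the higher ones, had means of 14.7 normalized counts labelled VEC-positive and 0.821 labelled VEC-null. It was tested only because it was high in the libraries labelled VEC-positive. The lower ones were Dynlt1f (-0.43, adjusted p = 0.0426) and Dynlt1a (-0.38, adjusted p = 0.0371), near-identical light chain genes whose division of reads is uncertain, and Actr1b (-0.23, adjusted p = 0.0442).

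Tubulin genes code for the track itself. Of 10 tested, 1 was higher and 3 were lower in libraries labelled VEC-positive, where 20.9% of all tested genes were higher and 16.4% lower. Under equal totals 8 were lower, where 5000 of 14036 tested genes were. Without VEC-null library 3, 5 were lower, where 3148 of 13709 tested genes were. Tubb2b had 88.6, 86.7 and 104 normalized counts in the libraries labelled VEC-positive and 476, 454 and 356 in those labelled VEC-null (log2 fold change -2.18, limma adjusted p = 2.05e-05). Tubb2a (-1.34) and Tubb6 (-1.31) were lower too, and the groups of all 3 did not overlap. Tubb2a and Tubb2b are close copies, so the division of reads between them is uncertain. The higher one was Tuba4a, with means of 22.2 normalized counts labelled VEC-positive and 6.42 labelled VEC-null, and it was tested only because it was high in the libraries labelled VEC-positive. Tubb5, a widely expressed beta-tubulin, did not pass (6158 ± 631 labelled VEC-positive and 8819 ± 2058 labelled VEC-null, adjusted p = 0.0506), and VEC-null library 3 overlapped the other group. Without that library it passed (-0.68, adjusted p = 0.000648).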
